A study of Mus musculus with 2 samples.

Results

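The MYC, MAX and MXD network was described at the level of its mRNAs in mouse macrophages exposed to lipid A. It was taken as 8 genes, Myc, Max, Mxd1, Mxd4, Mxi1, Mnt, Mlx and Mga, chosen by symbol, out of 55536 annotated genes. These genes encode basic helix-loop-helix leucine zipper proteins that bind DNA in pairs at the E-box, the sequence CACGTG. MYC paired with MAX activates genes of growth and ribosome production, whereas MXD1, MXD4, MXI1 and MNT pair with MAX and recruit the SIN3 and histone deacetylase corepressor. MLX is a MAX-like partner for the nutrient sensors MondoA and ChREBP, and MGA pairs with MAX inside the repressive complex PRC1.6. In myeloid cells MYC is known to be induced by growth factors, and MXD1 is known for its appearance when precursors stop dividing and mature.

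The cells were macrophages grown from bone marrow of C57BL/6J mice and treated with 100 ng/ml lipid A, the Toll-like receptor 4 ligand of bacterial lipopolysaccharide, for 75 minutes. Their cytosolic RNA, 1 µg per library, was sequenced as total RNA after ribosomal RNA had been removed. There was 1 group of 2 libraries, biological replicates 1 and 2. Both carry the same donor identifier, and separate animals or cultures are not stated, so the spread between them may be technical. Cells without lipid A and other fractions were not analysed here, so no value shows what lipid A did, and with a single group there is no test and no p-value.

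Replicate 1 held 55596625 and replicate 2 held 50157146 expected counts over genes in the first deposited quantification, and 65779228 and 62776976 in the second. The 8 macrophage markers checked (Adgre1, Csf1r, Cd68, Lyz2, Itgam, Cd14, Mrc1 and Mertk) all reached 1 TPM, the deposited abundance unit corrected for transcript length and library size. Of 6 neutrophil markers 3 did, with S100a9 highest at 17.3 TPM, and of 4 T and NK cell, 3 B cell, 3 mast cell, 3 erythroid and 3 stromal markers 0 did, the highest being Pecam1 at 0.18 TPM. The small RNAs Rn7s1 and Rn7s2 made up 69.8% (replicate 1) and 60.5% (replicate 2) of TPM. All mRNA levels in TPM are lowered by that share, so levels were also rescaled to nuclear-encoded protein-coding genes only. The nuclear RNA Malat1 had 158 TPM in replicate 1 against 799 TPM in replicate 2, and Neat1 14.8 against 64.6 TPM, both lower in replicate 1.

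The results turn on several alternative stretches of coding sequence, which tell the forms of Max, Mlx, Mga and Mxi1 mRNA apart. They are shown 5′ to 3′ on the strand of the gene, from GENCODE M21 transcripts, with coordinates on mm10. In the first 4 the capitals mark the alternative stretch and the 15 lower-case bases on each side are the neighbouring exon sequence. In the last 2, the first 60 coding bases of the alternative first exons of Mxi1, the capitals mark the start codon.
Max alternative exon 2 (chr12:76961263-76961289, minus strand, 27 nucleotides, 9 codons): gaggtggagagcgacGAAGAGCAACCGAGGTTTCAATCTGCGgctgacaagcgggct
Mlx alternative exon 3 (chr11:101088236-101088325, plus strand, 90 nucleotides, 30 codons): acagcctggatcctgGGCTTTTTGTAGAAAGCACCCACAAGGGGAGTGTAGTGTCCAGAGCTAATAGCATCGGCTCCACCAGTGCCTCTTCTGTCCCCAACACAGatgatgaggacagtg
Mlx extension of the first exon (chr11:101087368-101087529, plus strand, 162 nucleotides, 54 codons): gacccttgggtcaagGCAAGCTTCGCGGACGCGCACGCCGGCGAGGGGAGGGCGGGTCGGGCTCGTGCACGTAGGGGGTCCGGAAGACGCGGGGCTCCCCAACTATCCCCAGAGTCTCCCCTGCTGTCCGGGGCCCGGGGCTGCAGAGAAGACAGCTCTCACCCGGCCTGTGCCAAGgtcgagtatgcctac
Mga stretch in exon 16 (chr2:119946248-119946364, plus strand, 117 nucleotides, 39 codons): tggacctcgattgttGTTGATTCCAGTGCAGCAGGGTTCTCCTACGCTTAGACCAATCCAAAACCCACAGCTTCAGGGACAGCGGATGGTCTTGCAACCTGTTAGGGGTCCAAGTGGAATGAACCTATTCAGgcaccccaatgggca
Mxi1 upstream first exon (chr19:53310700-53310759, plus strand): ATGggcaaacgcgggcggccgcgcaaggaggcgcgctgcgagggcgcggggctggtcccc
Mxi1 downstream first exon (chr19:53329648-53329707, plus strand): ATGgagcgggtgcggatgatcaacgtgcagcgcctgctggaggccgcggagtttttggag
Every one of the first 4 stretches is a multiple of 3 long and so keeps the reading frame.

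All 8 members were detected at a mean of 1 TPM or more, a level that 39.3% of the 22015 nuclear-encoded protein-coding genes and 16.5% of all annotated genes reached. Mxd1 was the most abundant, followed by Max and Myc, while Mlx, Mxd4, Mga, Mxi1 and Mnt lay close together between 4.54 and 6.09 TPM. The median of the 8 members was 5.56 TPM, against 0.11 TPM over all nuclear-encoded protein-coding genes. Levels in a bulk sample do not tell fewer expressing cells from less RNA per cell.

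Myc, the activator (mm10, chromosome 15, 61985391 to 61990374, plus strand), had 8.16 TPM (replicate 1) and 14.6 TPM (replicate 2), a mean of 11.4 ± 4.56 TPM (SD, n = 2), from 1908 and 2833 expected counts. The authors' deposited credible bounds for these levels were 7.86 to 8.74 TPM and 14.1 to 15.4 TPM, so the replicates lay apart by more than the uncertainty of each estimate. Over nuclear-encoded protein-coding genes Myc had 37.8 and 66.9 TPM in the first quantification and 37.6 and 66.6 TPM in the second.

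Max, the common partner of MYC, the MXD proteins, MNT and MGA (chromosome 12, 76937269 to 76962201, minus strand), had 20.8 TPM in replicate 1 and 18.8 TPM in replicate 2, or 19.8 ± 1.41 TPM. Its counts were 3963 and 2886. Max mRNA was 2.55 times as abundant as Myc mRNA in replicate 1 and 1.29 times in replicate 2. Set against its partners together (Myc, Mnt, Mga, Mxd4, Mxi1, Mxd1 and Mxd3), Max reached 0.288 and 0.322 of their summed TPM, noncoding transcripts included.

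Mxd1, the MXD repressor of maturing myeloid cells (chromosome 6, 86647042 to 86669161, minus strand), had 44.5 TPM in replicate 1 and 25.6 TPM in replicate 2, or 35.0 ± 13.4 TPM, from 22255 and 10795 counts. By mean level it ranked 919 among the 22015 nuclear-encoded protein-coding genes. It alone gave 44.9% of the summed TPM of the 8 members in replicate 1 and 30.8% in replicate 2. The other MXD genes among the members were much lower. Mxd4 (chromosome 5, 34173883 to 34187720, minus strand) had 5.06 and 5.01 TPM, with an SD of 0.0354 TPM the smallest spread of the 8. Mxi1, also called Mxd2 (chromosome 19, 53310518 to 53375810, plus strand), had 5.15 and 4.02 TPM. Mxd1 thus held 81.3% of the TPM of the MXD genes in replicate 1 and 73.8% in replicate 2.

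Mnt, a MAX partner that represses the targets of MYC (chromosome 11, 74830920 to 74845725, plus strand), had 4.32 TPM in replicate 1 and 4.76 TPM in replicate 2. Mlx (chromosome 11, 101087277 to 101092207, plus strand) had 6.27 and 5.90 TPM, and its level was 0.302 and 0.314 of that of Max. Mga, the largest protein of the network, which carries a T-box as well as its helix-loop-helix (chromosome 2, 119897228 to 119969581, plus strand), had 4.93 and 4.31 TPM. Of the Mga TPM, coding transcripts held 59.3% and 68.4%. Noncoding processed transcripts held 40.1% and 30.5%, from only 4.99% and 2.88% of the counts of Mga. For Mlx, noncoding processed transcripts held 13.9% and 17.5% of TPM. The levels and their order given here include all transcripts of a gene, so they overstate coding Mga and, to a lesser degree, coding Mlx. With all transcripts included, the replicates of Mga and Mxi1, and of Mxi1 and Mnt, overlapped in the order of mean levels. On that basis these neighbours did not differ beyond their spread, and the range of Mxi1 also took in both values of Mxd4. The order of coding transcripts alone was not compared. Mxd1, Max, Myc and Mlx followed each other with no overlap in the first quantification.

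**Figure D1:**
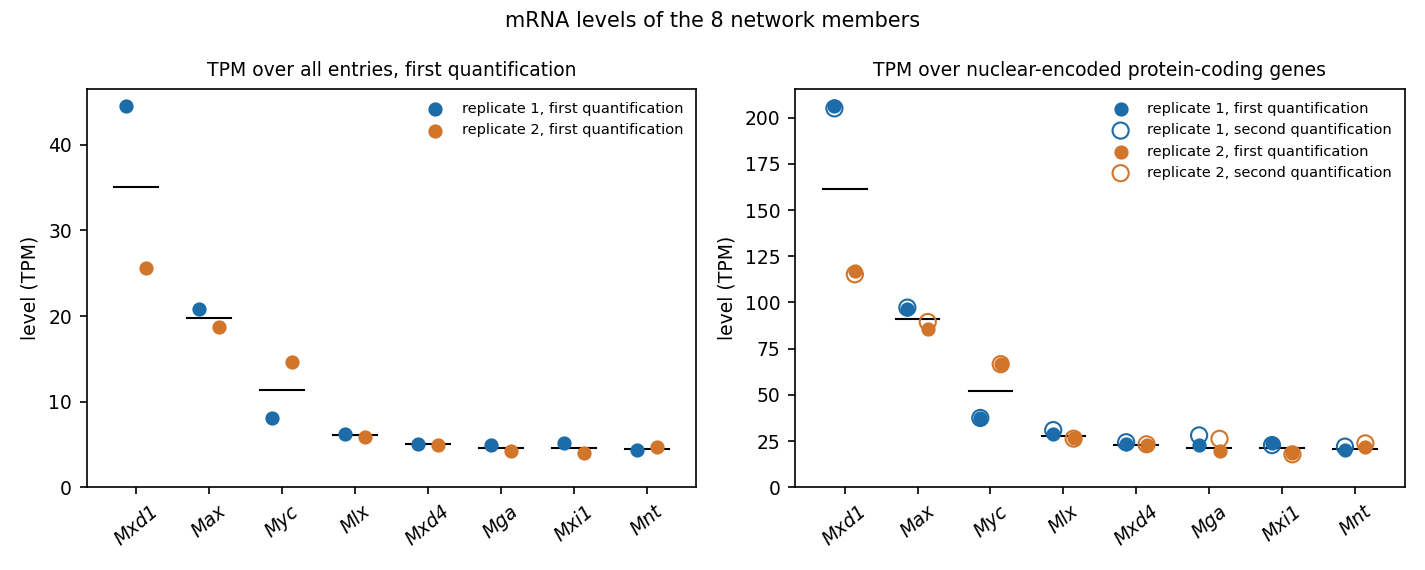
Level of each member in TPM, scaled over all entries (left) and over nuclear-encoded protein-coding genes (right), with 1 point per replicate, filled for the first and open for the second quantification, and a bar at the mean of the first. Mxd1 is highest in both replicates, and Mxd1 (44.5 and 25.6 TPM on the left) and Myc (8.16 and 14.6 TPM) differ between the replicates in opposite directions.

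The wider family was represented by few genes. Among 5 further genes of the network, 1 reached 1 TPM, Mlxip, which encodes MondoA and had 3.90 and 3.78 TPM. The MYC paralog Mycl had 0.04 and 0.06 TPM, from 13 counts in each library. Mxd3 had 2 and 6 counts, and Mlxipl, which encodes ChREBP, 1 and 2 counts, or 10 and 41.5 counts in the second quantification. Mycn had 0 counts in both, which allows at most 3 counts per library. Myc and Mlxip were therefore the MYC-type and Mondo-type mRNAs that reached 1 TPM.

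Each gene's leading transcript was the same in both replicates, as the plot of transcript shares shows. A single transcript made up nearly all of Mxd1 (Mxd1-201, 96.5% and 96.4% of the gene's TPM), Mxd4 (Mxd4-201, 98.6% and 94.2%) and Mnt (Mnt-201, 98.4% and 100%). In the second quantification Mnt-201 held less, 87.6% and 90.7%, and the rest was Mnt-203, a transcript annotated with a retained intron. The remaining 5 members were mixtures of forms.

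Max was present as both of its well-known forms, which differ by the 9 codons of exon 2 shown above. Max-201, which skips the exon and has 151 codons, held 59.9% of Max TPM in replicate 1 and 59.0% in replicate 2. Max-202, which includes it and has 160 codons, held 35.3% and 32.1%. Among the 3 coding forms of Max, the share that includes exon 2 was 37.9% and 35.4%, or 36.7% ± 1.75 (SD, n = 2), and in the second quantification it was 39.0% and 34.2%. The shorter form therefore led in both libraries and both quantifications.

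Mlx was divided among 3 full-length coding forms. Among them Mlx-202, which has exon 3 and the short first exon, held 57.1% in replicate 1 and 59.2% in replicate 2. Mlx-201, which has the extended first exon and exon 3, held 29.0% and 21.9%, and Mlx-203, which skips exon 3, held 13.9% and 18.9%. The second quantification gave the same order for Mlx-202 (52.4% and 60.6%), Mlx-201 (34.1% and 26.7%) and Mlx-203 (13.5% and 12.7%). A short noncoding transcript, Mlx-204, held 13.9% and 16.6% of all Mlx TPM, although it had only 40.2 and 38.3 counts of the 1040 and 730 of the gene.

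Mxi1 was transcribed from alternative first exons whose coding beginnings differ, as the bases shown above do. The upstream start, Mxi1-201 with 295 codons, held 67.6% of Mxi1 TPM in replicate 1 and 65.4% in replicate 2. The downstream starts, nearly all of it Mxi1-203 with 228 codons, held 32.4% and 34.6%. The second quantification gave 63.5% and 57.5% for the upstream form. The upstream form thus led in every library and quantification.

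Myc transcripts Myc-201 and Myc-205 are identical in sequence and were merged; their annotated coding parts differ in length, with 454 and 439 codons. Together they held 58.6% (replicate 1) and 63.2% (replicate 2) of Myc TPM, and in the second quantification 60.1% and 66.0%. Myc-202 held 35.9% and 25.4%, but 26.4% and 12.8% in the second quantification, so its share is less certain.

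Mga could not be assigned to a leading form. In the first quantification Mga-204, which contains the stretch of 39 codons shown above, held 71.5% and 78.2% of the TPM of Mga-201 and Mga-204 together. The second quantification gave 13.1% and 17.2% to Mga-204 and the rest to Mga-201, which lacks the stretch. These transcripts are 13931 and 11982 nucleotides long and share most of their sequence, and their ends differ as well as the stretch.

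**Figure D2:**
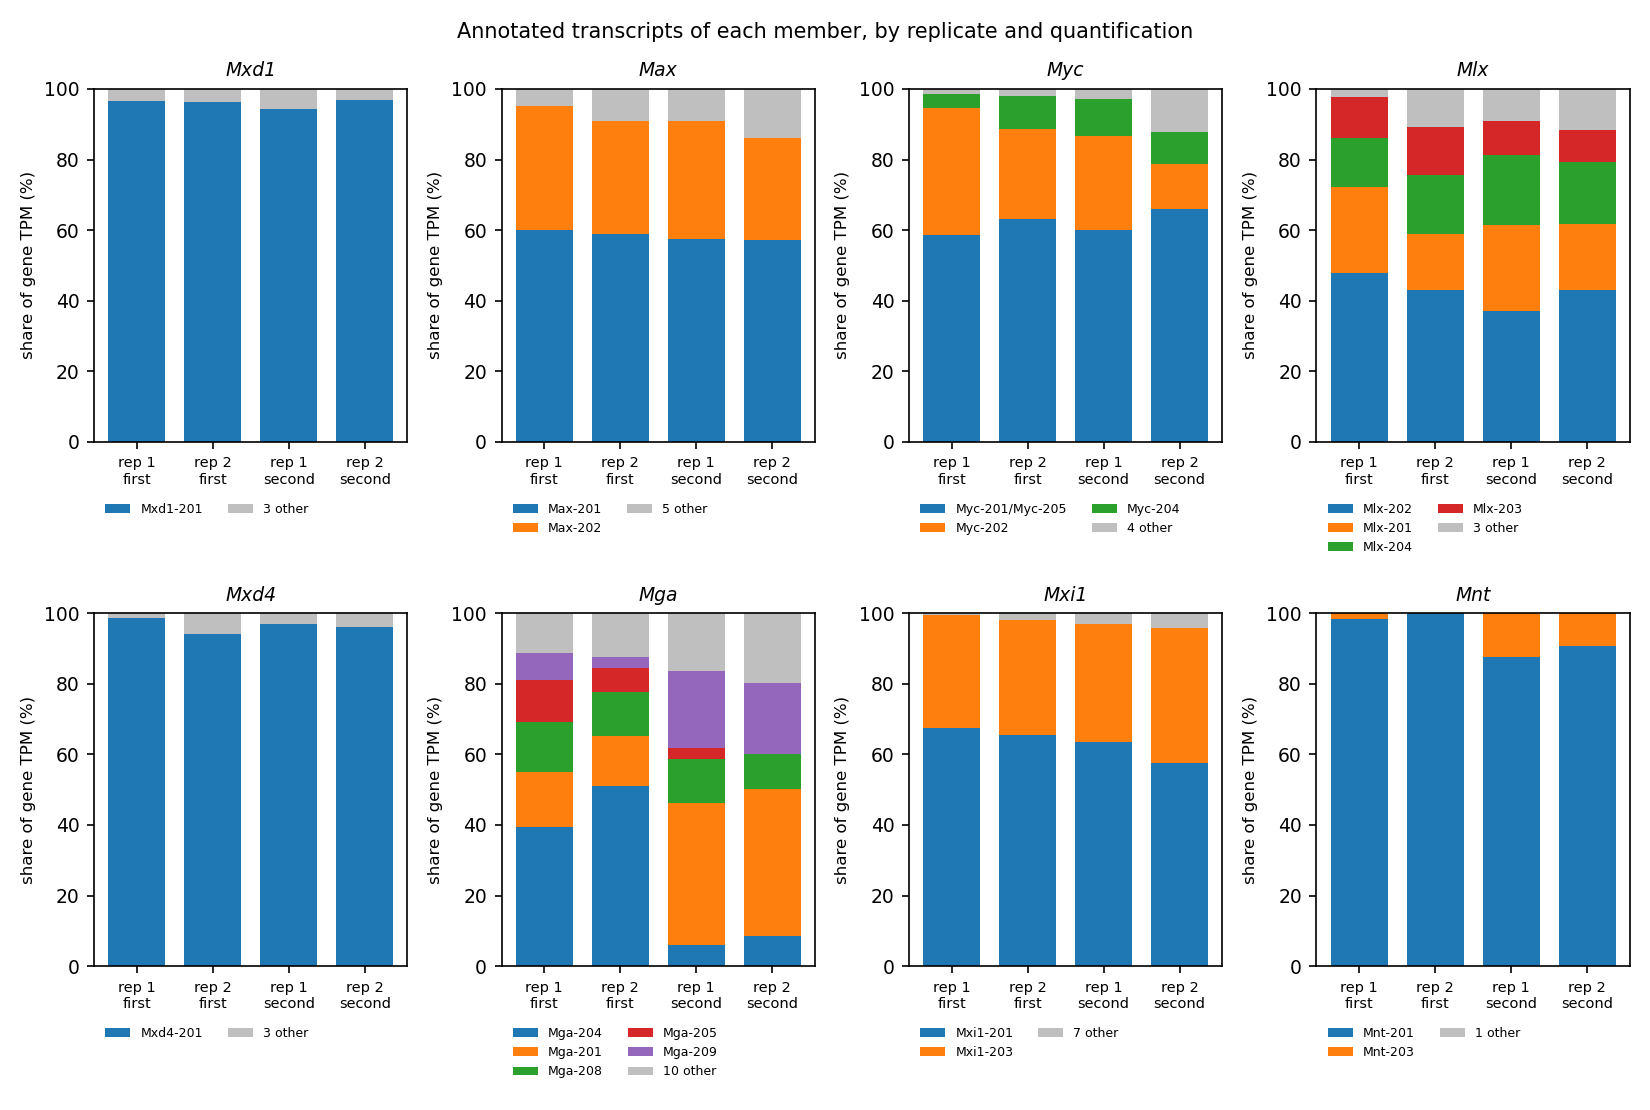
Share of each member's TPM, in percent, held by its annotated transcripts, with a bar for each replicate in the first and in the second quantification and transcripts of small share in grey. Shares such as that of Myc-202 move between the quantifications, and in Mga the leading form differs: Mga-204 leads in the first quantification (39.3% and 50.9%) and Mga-201 in the second (40.1% and 41.6%).

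Reads from transcripts annotated with a retained intron were few, as they were for the median gene. The 8 such transcripts, which belong to 6 of the members, had 37.1 counts in replicate 1 and 87.1 in replicate 2, whereas the 34 coding transcripts had 39167 and 25551. All nuclear-encoded protein-coding genes together had 623941 and 746454 retained-intron counts, against 4.51e+07 and 4.05e+07 coding counts. In the median such gene averaging at least 100 counts, retained-intron transcripts held 0% and 0.124% of counts. Scaled for depth, replicate 1 over replicate 2 for the members was 0.374 in the retained-intron class (95% counting interval 0.246 to 0.552) and 1.34 in the coding class. Across every nuclear-encoded protein-coding gene together these ratios were 0.730 and 0.973. The second quantification gave the 8 retained-intron transcripts 120 and 161 counts, a ratio of 0.691 (0.541 to 0.880), close to its ratio of 0.737 over all those genes. In the first quantification most of the members' retained-intron counts came from Mxd1-204, with 22.8 and 67.8 counts. Spliced Mxd1-201 had 22164 and 10708 of the coding counts and a ratio of 1.81. The coding ratio of 1.34 thus rests largely on Mxd1. In the second quantification Mxd1-204 had 32.1 and 80.5 counts, and Mnt-203 had 41.3 and 29.1 counts. Malat1 and Neat1, with ratios of 0.214 and 0.246, were also lower in replicate 1, and their part in these differences was not tested.

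Replicate 1 and replicate 2 were then compared to show how far a level can be trusted. Ratios here are of expected counts scaled by TMM, with 95% Clopper-Pearson intervals that cover counting error only. Of the 8 members 2 lay more than 1.5-fold apart, Mxd1 higher and Myc lower in replicate 1. Among all 13392 genes averaging at least 10 counts 14.1% lay as far apart, 3.52% higher and 10.5% lower in replicate 1. Among the 7220 genes averaging at least 500 counts, a depth that all 8 members had, 3.46% did, 0.983% higher and 2.48% lower.

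Mxd1, with 22255 and 10795 counts, had a ratio of replicate 1 to replicate 2 of 1.80 (1.76 to 1.84), and 1.29% of the 7220 genes lay at least as far apart. Myc, with 1908 and 2833 counts, had a ratio of 0.588 (0.555 to 0.624), and 1.61% of those genes lay as far apart. In the second quantification the ratios were 1.90 and 0.632. The activator and the most abundant repressor mRNA thus stood on opposite sides in the same pair of libraries. Mxd1 mRNA was 5.45 times as abundant as Myc mRNA in replicate 1 and 1.75 times in replicate 2, a 3.11-fold difference that no scaling of a library as a whole can alter. The second quantification gave 5.45 and 1.73 for the same quotient. All MXD genes together were 6.70 and 2.37 times as abundant as Myc, and without Mxd1 they were 1.25 and 0.622 times as abundant, so Mxd4, Mxi1 and Mxd3 together were above Myc in replicate 1 and below it in replicate 2.

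The other 6 members lay within 1.5-fold. Mxi1 had a ratio of 1.35 (1.24 to 1.47), Mlx 1.24 (1.13 to 1.37) and Max 1.20 (1.14 to 1.26). Mxd4 had 1.09 (1.02 to 1.16), Mga 1.04 (0.997 to 1.09) and Mnt 0.929 (0.874 to 0.988). The interval of Mga included 1. Of the 7220 deeply counted genes 7.13% lay at least as far apart as Mxi1, 15.3% as Mlx and 21.7% as Max, and 56.5% as Mxd4, 77.5% as Mga and 60.5% as Mnt. Of the macrophage markers 7 of 8 were lower in replicate 1, with a median ratio of 0.742 and the lowest, Itgam, at 0.650. The most abundant marker, Lyz2, was higher in replicate 1, with a ratio of 1.067. By comparison, 5410 of the 11606 nuclear-encoded protein-coding genes averaging at least 10 counts were lower in replicate 1. Their median log2 ratio was 0.02, against -0.431 for the macrophage markers. The part of these markers, and of nuclear RNA, in the differences of Mxd1 and Myc was not tested.

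**Figure D3:**
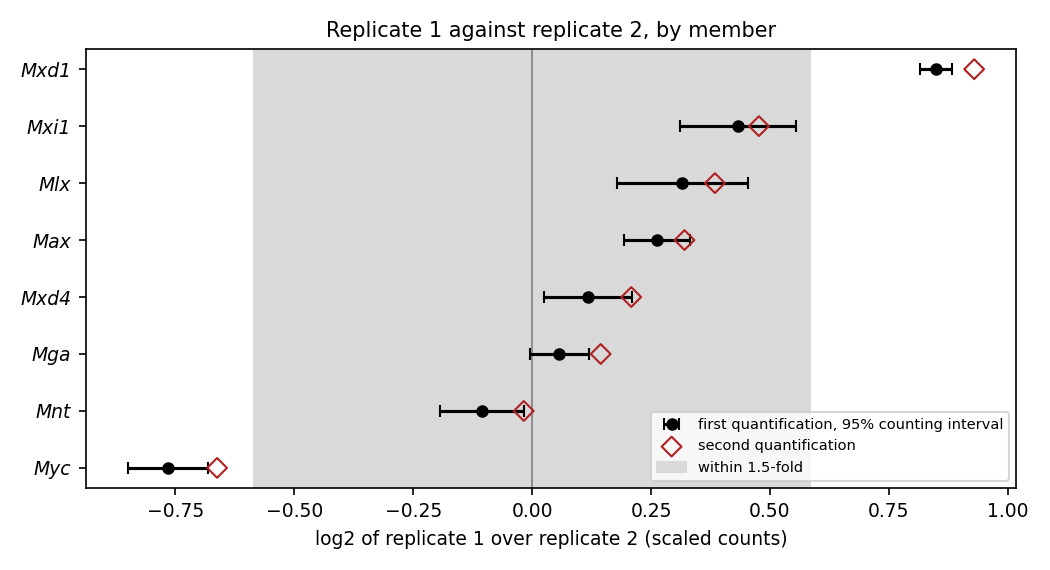
Replicate 1 over replicate 2 for each member on a log2 scale, from scaled expected counts, with points and 95% counting intervals for the first quantification, diamonds for the second and grey for ratios within 1.5-fold. Mxd1 (ratio 1.80) and Myc (0.588) lie outside the grey band on opposite sides in both quantifications, and the other 6 members lie inside it.

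The partners through which the network acts were mostly present. Of 12 genes of the SIN3 and histone deacetylase corepressors, which MXD proteins and MNT recruit, 11 reached 1 TPM, and the median was 8.92 TPM. The corepressor Ncor1 had 31.1 and 32.8 TPM, the SIN3 scaffold Sin3b 25.2 and 25.3 TPM, and the histone-binding Rbbp7 12.7 and 13.2 TPM. Sap30 had 12.1 and 9.87 TPM and Rbbp4 averaged 10.8 TPM. Below 1 TPM was Brms1l, at 0.905 TPM, or 4.17 TPM when rescaled to nuclear-encoded protein-coding genes. Of the 12 corepressor genes 11 were higher and 1 lower in replicate 1, with a median log2 ratio of 0.098, and 0 lay more than 1.5-fold apart. Of the 11606 nuclear-encoded protein-coding genes averaging at least 10 counts, 6196 were higher in replicate 1, with a median log2 ratio of 0.02.

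All 16 cofactors through which MYC activates genes reached 1 TPM, with a median of 7.49 TPM. Cdk9, the kinase that releases paused polymerase, had 15.6 and 18.6 TPM. The acetyltransferase Ep300 averaged 11.9 TPM, the scaffold Trrap 10.9 TPM and the cyclin Ccnt1, partner of Cdk9, 8.40 TPM. Of the 16, 5 were higher and 11 lower in replicate 1, with a median log2 ratio of -0.04, and none passed 1.5-fold between the replicates. Over the 11606 nuclear-encoded protein-coding genes averaging at least 10 counts, 6196 were higher and 5410 lower, with a median of 0.02.

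Of 12 genes that control the turnover of MYC protein, 7 reached 1 TPM on the scale over all entries, with a median of 1.38 TPM. The ubiquitin ligase Huwe1 had 18.7 and 15.9 TPM, Gsk3b, whose kinase marks MYC for destruction, 16.5 and 17.7 TPM, and the phosphatase subunit Ppp2r5a 15.6 and 16.1 TPM. Fbxw7, the ligase that recognises that mark, averaged 5.77 TPM and Btrc 1.83 TPM. Below 1 TPM were Skp2 (0.43 TPM), Usp36 (0.675 TPM), Cip2a (0.695 TPM), Trim32 (0.765 TPM) and Aurka (0.905 TPM). Rescaled to nuclear-encoded protein-coding genes, these averaged from 1.98 TPM (Skp2) to 4.16 TPM (Aurka). On that scale all 12 genes exceeded 1 TPM.

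Of 10 genes of PRC1.6, the Polycomb complex that holds MGA, 9 reached 1 TPM, with a median of 4.29 TPM. Its ubiquitin ligase Rnf2 had 22.6 and 17.8 TPM, and the heterochromatin protein gene Cbx3 12.8 and 11.6 TPM. Rybp averaged 7.48 TPM, Tfdp1 6.08 TPM and Cbx1 5.92 TPM, while Pcgf6, the subunit that defines the complex, had 0.945 TPM. Rescaled to nuclear-encoded protein-coding genes, Pcgf6 had 4.35 TPM. All 10 were higher in replicate 1, 0 of them past 1.5-fold, with a median log2 ratio of 0.13. The median of the 11606 nuclear-encoded protein-coding genes counted at least as deeply as the threshold of 10 was 0.02, and 6196 of them were higher in replicate 1.

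**Figure D4:**
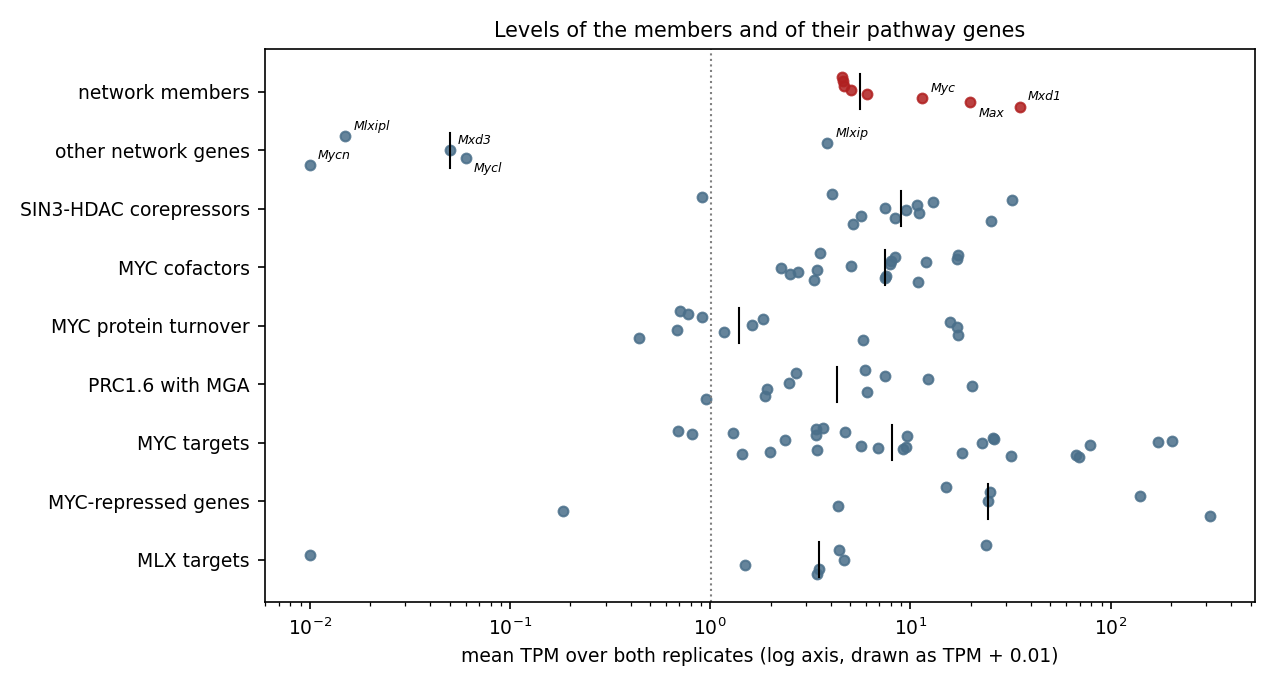
Mean TPM of the members and of the genes of each list, on a log axis after adding 0.01, with 1 point per gene, a bar at each list's median and a dotted line at 1 TPM. The median of the members is 5.56 TPM, and 4 of the 5 other network genes lie far below 1 TPM.

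Known targets of the network were also present, which shows their level and not their control. Of 26 genes that MYC is known to activate 24 reached 1 TPM, with a median of 8.05 TPM. The transferrin receptor Tfrc had 149 and 255 TPM, the helicase Eif4a1 171 and 173 TPM, and the lactate dehydrogenase Ldha 76.1 and 81.6 TPM. The polyamine enzyme Odc1 averaged 69.2 TPM and the nucleolar chaperone Npm1 66.8 TPM. Polr1b (0.805 TPM) and Cdc25a (0.68 TPM) were below, but had 3.70 and 3.13 TPM when rescaled to nuclear-encoded protein-coding genes. Between replicates 12 of the 26 were higher and 14 lower in replicate 1, with a median log2 ratio of -0.01, against -0.76 for Myc itself. Over the 11606 nuclear-encoded protein-coding genes averaging at least 10 counts, 6196 were higher and 5410 lower. Past 1.5-fold were 2 of the 26, both lower in replicate 1, Tfrc with a ratio of 0.589 and the ribosome factor Ppan with 0.581. Among all genes averaging at least 10 counts 14.1% lay past 1.5-fold, 10.5% lower in replicate 1, and among those averaging at least 500 counts 3.46% did. The share of these 2 genes among the 26 lies between the shares of the 2 backgrounds. No difference of the targets from other genes is read from it.

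Of 7 genes that MYC is known to repress 6 reached 1 TPM, with a median of 24.5 TPM. The cell cycle inhibitor Cdkn1a had 351 and 273 TPM, with a ratio of 1.34, and the stress gene Gadd45b 138 and 142 TPM. Ndrg1 averaged 24.9 TPM, Gadd45a 24.5 TPM the myeloid factor Cebpa had 13.4 and 16.6 TPM, and Cdkn2b averaged 0.175 TPM. None of the 7 was past 1.5-fold in the first quantification, but the cell cycle inhibitor Cdkn1b, with a ratio of 1.48 there, had 1.57 in the second. Of 7 known targets of MLX and its partners 6 reached 1 TPM, with a median of 3.49 TPM. The hexokinase Hk2 had 22.5 and 25.4 TPM, and Klf10 3.37 and 5.96 TPM with a ratio of 0.602, the only one past 1.5-fold. The level of Klf10 depends on the quantification: rescaled to nuclear-encoded protein-coding genes it was 15.6 and 27.3 TPM in the first and 55.2 and 83.2 TPM in the second, where its ratio was 0.643. Fasn averaged 4.41 TPM, Arrdc4 3.49 TPM and Txnip, the glucose-responsive inhibitor of thioredoxin, 3.40 TPM, and Pklr had 0 counts.

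**Figure D5:**
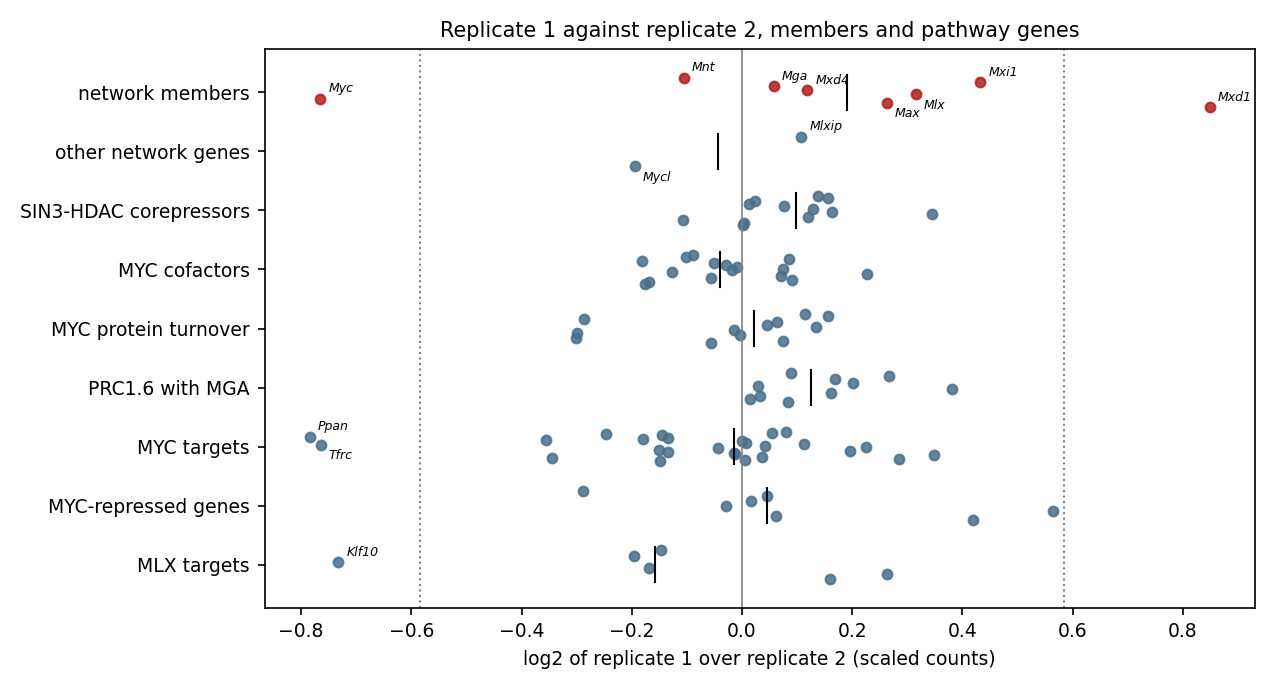
Replicate 1 over replicate 2 on a log2 scale, from scaled expected counts, for members and listed genes averaging at least 10 counts, with a bar at each list's median, a line at 0 and dotted lines at 1.5-fold. Outside the dotted lines lie Mxd1 (0.85) on the right and Myc (-0.76), Tfrc, Ppan and Klf10 on the left.

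The promoters of the members were searched for the E-box that the network's own proteins bind, in windows of 250 bases before to 50 bases after each RefSeq start on GRCm38.p6. Of the 8 members 7 matched an entry, Mxi1 with 3 starts. CACGTG, which reads the same on both strands, was found in Max, Mlx, Mnt and Mxd4, with its first base at positions -3, -40, -123 and -219 from the start. It occurs in 7.15% of all 32851 promoters of this length. The related CACGCG, searched on both strands, was found in Mga, at position -21, and occurs in 9.27% of promoters. Mxd1 and the 3 starts of Mxi1 held neither. Shown are the promoters of Max and Mlx, the common partners of the MAX and MLX arms, in which the E-box lies nearest the start, with the E-box in capitals and 5′ to 3′ on the strand of the gene.
Max promoter (chr12:76962199-76962498, minus strand): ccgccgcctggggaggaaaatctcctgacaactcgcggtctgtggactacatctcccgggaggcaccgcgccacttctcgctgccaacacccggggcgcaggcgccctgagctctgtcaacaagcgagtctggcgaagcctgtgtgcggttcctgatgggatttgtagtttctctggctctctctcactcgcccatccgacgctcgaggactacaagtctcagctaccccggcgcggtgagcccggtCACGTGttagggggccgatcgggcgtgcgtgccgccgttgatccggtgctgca
Mlx promoter (chr11:101087040-101087339, plus strand): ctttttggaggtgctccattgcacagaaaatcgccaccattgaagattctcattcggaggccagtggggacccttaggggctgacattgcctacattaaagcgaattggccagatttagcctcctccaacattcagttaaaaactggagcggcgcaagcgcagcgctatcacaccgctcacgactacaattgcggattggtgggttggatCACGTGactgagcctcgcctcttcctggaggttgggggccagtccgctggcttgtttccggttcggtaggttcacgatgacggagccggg
A match describes the letters in the window only, and no binding was measured.

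Some members share exonic bases with other genes, which bears on their counts because the strand used in counting is not given in the sources used here. Mxd4 shares 514 exonic bases with the antisense gene Gm42846, which had 58.8 and 43.8 counts, against 2123 and 1709 for Mxd4. Mlx shares 385 with Psmc3ip on the opposite strand, which had 23.2 and 24.5 counts. Mxi1 shares 194 with Gm10197, which had 0 counts. Reads of these overlaps cannot be assigned with certainty. The deposited posterior SD of the counts of Mxd4, Mlx and Mxi1 was at most 0.370% of the count. That SD rests on the strand setting used in the quantification and does not measure an error in it.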

How the data were processed

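Total RNA depleted of ribosomal RNA was measured in 2 libraries of 1 group of cytosolic macrophage RNA. Per the deposited readme files, the tables use mm10 and annotation M21, the first quantification was made from transcriptome alignments and the second directly from reads. Aligner, quantifiers, versions and strand setting: not given in the sources used here. In unit, the expected counts deposited by the authors are estimated fragments per gene or transcript, not normalized. The TPM values deposited by the authors are scaled per effective length to a fixed sum over all entries. Posterior SDs and credible bounds, other columns deposited by the authors, were copied. The percent of a gene held by a transcript, also deposited by the authors, was recomputed here from TPM.

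Entries without a gene identifier made up 0.251% (replicate 1) and 0.204% (replicate 2) of counts and were left out. Counts were rounded and scaled by TMM in edgeR 4.0.16 (R 4.3.3) over genes averaging at least 10 counts, and 0.5 was added for ratios. DESeq2 1.42.0 gave alternative size factors. Clopper-Pearson intervals at 95% came from scipy 1.17.1 under Python 3.11.15, with numpy 2.4.6 and pandas 2.3.3, and figures from matplotlib 3.10.9. The ratio step was tested on simulated data. Promoters came from RefSeq tables and transcript sequences from GENCODE M21. With 1 group, no p-value was computed, and errors are SDs over n = 2.

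Named are all members, the 5 other network genes, and of each other list up to 5 genes of highest mean TPM and, where 5 or fewer are below 1 TPM, those. A gene that this rule names is not reported here. Malat1, Neat1 and any other gene named, such as Ppan and Itgam, were chosen after their values were seen or for library quality. The members and lists were chosen with earlier results of these data known. The comparison with genes averaging at least 500 counts was added after the data were seen. Alternatives covered the quantification, the scale of TPM, the detection threshold, scaling, low-count filter, prior count and each replicate left out.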

Additional observations from a re-analysis of the deposited data

How the results depend on the processing

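The median level of the members was 5.56 TPM. It was 2.77 TPM in the second quantification and 25.6 TPM over nuclear-encoded protein-coding genes, and leaving out either replicate gave 5.46 to 5.71 TPM. All 8 members stayed at 1 TPM or more under every alternative run, and 2 lay past 1.5-fold under every scaling, filter, prior count and quantification run. Pathway genes detected numbered 80 of 95, and 70 to 89 under the alternatives. The leading transcript was that of the first quantification for 7 of 8 members in the second, with Mga the exception. With 2 libraries of 1 group the spread is poorly known, and depth limits statements on Mycl, Mxd3, Mlxipl, Mycn and the retained-intron transcripts. No paired analysis was possible because there is only 1 group.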
